A study of Mus musculus with 6 samples.

Results

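The deposited table of short RNAs in mouse duodenum, the first stretch of the small intestine, held 8 transcripts of the U1 small nuclear RNA among its 1929 rows. They were taken by gene symbol: Gm23804, Rnu1b1, Gm22042, Gm23238, Gm26244, Gm25189, Gm26110 and Gm24924. All 8 were measured, and the choice used their sequence family and not their levels. The study asked how partial loss of RNA polymerase III (Pol III) alters short noncoding RNAs. It compared female C57Bl/6N wild-type mice with females heterozygous for the allele C57BL/6N-Polr3b<em7(IMPC)Tcp>/Tcp, with 3 libraries in each genotype. This allele carries a Cas9-made frameshift in Polr3b, which encodes a Pol III subunit, and every cell of the heterozygous mice keeps 1 intact copy of the gene. Wild-type and heterozygous mice came from separate matings, all with wild-type C57Bl/6N partners, so genotype and parentage cannot be told apart. All mice were fasted overnight and age was not given in the sources used here.

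U1 snRNA is the RNA core of the U1 snRNP, the particle that recognises the 5′ splice site at the start of an intron. Its 5′ end pairs with that site, a short uridine-rich stretch binds the ring of Sm proteins, and the loop of its second stem binds the U1A protein. RNA polymerase II makes U1, as it does U2 and U5, whereas Pol III makes U6. Mouse genomes carry many U1 genes of 2 main forms: U1a is found in all tissues, and U1b, which differs in the second stem, is best known from embryonic cells.

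The sequences are shown because the copies are so alike that the division of reads among them is itself an estimate. Gm23804 stands for the U1a form, with capitals for the 5′ end that pairs with splice sites and for the Sm site. In Rnu1b1, Gm22042 and Gm23238 the capitals mark bases that differ from Gm23804. These 4 were chosen as the U1a form, the U1b form, its closest variant and the copy with the largest count outside Gm23804.
Gm23804: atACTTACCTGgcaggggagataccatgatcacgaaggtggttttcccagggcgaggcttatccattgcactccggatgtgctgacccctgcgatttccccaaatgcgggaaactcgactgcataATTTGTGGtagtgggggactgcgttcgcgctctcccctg
Rnu1b1: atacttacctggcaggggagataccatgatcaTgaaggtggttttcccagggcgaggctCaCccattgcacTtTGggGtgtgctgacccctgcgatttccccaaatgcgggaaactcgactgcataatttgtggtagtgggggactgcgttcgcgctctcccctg
Gm22042: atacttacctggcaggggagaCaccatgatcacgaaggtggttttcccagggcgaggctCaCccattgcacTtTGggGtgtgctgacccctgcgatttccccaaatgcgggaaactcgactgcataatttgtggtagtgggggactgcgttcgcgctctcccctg
Gm23238: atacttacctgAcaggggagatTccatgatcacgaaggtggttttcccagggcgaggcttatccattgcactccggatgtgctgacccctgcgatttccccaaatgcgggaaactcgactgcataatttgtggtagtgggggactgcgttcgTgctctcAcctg

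These sequences are from GENCODE vM21 on the GRCm38 build, whereas the authors quantified against GRCm39. Gm23804 lies at chr12:54714218-54714381 on the plus strand and overlaps no other annotated gene. Rnu1b1 lies at chr3:96359953-96360117 on the minus strand and Gm22042 at chr4:51812483-51812647 on the minus strand, neither within another gene. Gm23238 lies at chr19:18732741-18732904 on the plus strand, across an exon of the antisense lincRNA AC134906.1. Gm26110 lies at chr1:171027965-171028129 on the plus strand, in an intron of Fcgr4, which encodes an immunoglobulin G receptor. Gm25189 lies at chr2:117248271-117248434 on the plus strand, outside other genes.

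By sequence the copies formed a U1a group of 5 (Gm23804, Gm23238, Gm26244, Gm25189 and Gm24924), each 164 bases long, and a U1b group of 3 (Rnu1b1, Gm22042 and Gm26110), each 165 bases long. The U1b group shared T60C, T62C, C73T, C74G and A77G, with positions counted from the 5′ end of Gm23804, and a T inserted after position 71. Rnu1b1 added C33T, Gm22042 added T22C, and Gm26110 added G17A, T42C, C147T, C153T and G164T. Within the U1a group, Gm26244 and Gm24924 each differed from Gm23804 at 1 base, Gm23238 at 4 (G12A, A23T, C153T and C160A) and Gm25189 at 6 (C58T, T59G, C88A, C151T, C153T and G164T).

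All 8 copies held the letters ACTTACCTG of the 5′ end, starting at base 3, the letters ATTTGTGG of the Sm site, starting at base 126 or 127, and the U1A loop letters ATTGCAC, starting at base 65. Searched on the transcript strand, the same letters were present in 3 (0.225%), 8 (0.601%) and 19 (1.43%) of 1331 other named transcripts. These 1331 leave out 17 further transcripts that resemble U1, of which 6, 9 and 11 held the letters. The 8 copies were chosen for their likeness, so shared letters follow from that choice. These 3 motifs do not overlap each other. The differences among the copies therefore all lay outside these letters.

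**Figure D1:**
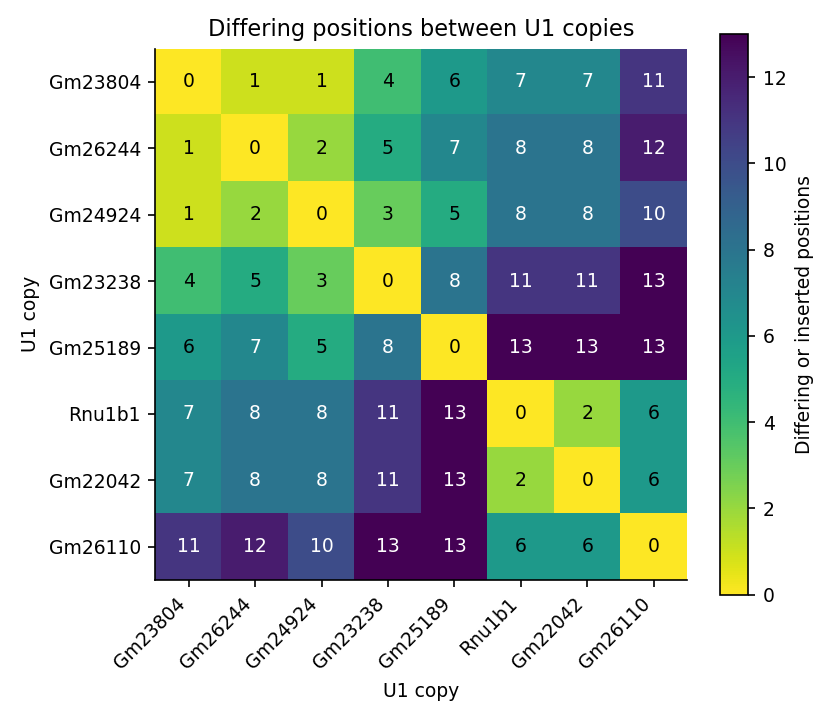
Number of differing or inserted positions between each pair of the 8 U1 copies, with both axes listing the copies. Gm26244 and Gm24924 sit 1 base from Gm23804, Rnu1b1 and Gm22042 sit 2 bases from each other, and no pair differs at more than 13 positions.

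This likeness limits what a read can tell. Gm23804 had 0 of 134 stretches of 31 bases that no other U1 copy shared. At 75 bases, the length of 1 sequenced end, it had 0 of 90. Stretches were compared among the U1 copies only, and not with the other rows. The libraries were sequenced from both ends, and what a pair of ends can tell together was not examined. Gm24924 had 5 of 90 unique stretches of 75 bases, Gm26244 13 of 90, Gm23238 28 of 90, Rnu1b1 and Gm22042 33 of 91 each, Gm26110 60 of 91 and Gm25189 90 of 90. The sequence of Gm23804 was also that of 6 other annotated genes, Rnu1a1 among them, none of which had a row of its own among the matched identifiers. Its row can therefore hold the RNA of 7 genes, and the row of Rnu1b1 can hold that of Rnu1b2, which has the same sequence.

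The libraries did not group by genotype in every case. Over the 626 transcripts whose counts averaged 10 or more, the Spearman correlation of wild-type library 1 was 0.803 and 0.761 with the other wild-type libraries, and 0.858, 0.826 and 0.861 with heterozygous libraries 1 to 3. Heterozygous library 3 stood at 0.828 and 0.841 with the others of its genotype, and at 0.864 and 0.854 with wild-type libraries 2 and 3. The remaining pairs within a genotype stood at 0.938 (wild type) and 0.929 (heterozygous).

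Gm23804 carried nearly all U1. Its estimated counts were 60983, 182124 and 220234 in wild-type libraries 1 to 3 and 465931, 430579 and 91909 in heterozygous libraries 1 to 3. It ranked 2nd or 3rd of the 1929 transcripts in every library. The column totals ran from 1719869 (wild-type library 1) to 9771623 (heterozygous library 2), so raw counts are not comparable between libraries. After division by the DESeq2 size factors, Gm23804 stood at 181012, 159304 and 183630 normalised counts in wild-type mice, against 223587, 196257 and 170704 in the heterozygous ones. The genotypes overlapped, with the lowest value in wild-type library 2 and the highest in heterozygous library 1.

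The means were 174649 ± 13352.9 and 196849 ± 26446.3 normalised counts (SD, n = 3 each). The log2 difference, heterozygous minus wild type, was 0.17 (SE 0.33, 95% interval -0.47 to 0.82), with a DESeq2 adjusted p of 0.999948. Over the 6 libraries the coefficient of variation of Gm23804 was 12.03%, against 91.5% to 205% for the other 7 copies. The median was 48.2% over the 626 transcripts whose counts averaged 10 or more, and 6 of them (0.958%) had a lower value than Gm23804.

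The remaining U1a copies were far scarcer, at 418 counts or fewer in any library. The copies differ in length by at most 1 base, so their counts can be set side by side. Each count is still a model's estimate. Most 75-base stretches of Gm23238, Gm26244 and Gm24924 were shared with other U1 copies. The 75-base stretches of Gm25189 were all absent from the other U1 copies. It had 50, 23 and 38 counts in the wild-type libraries, against 227, 10 and 29 in the heterozygous ones. In normalised counts this was 148, 20.1 and 31.7 against 109, 4.56 and 53.9. Wild-type library 1 was the highest and heterozygous library 2 the lowest, and the genotypes overlapped (log2 difference -0.24, SE 1.28).

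Gm24924, a near copy of Gm23804, had 41, 16 and 16 counts in the wild-type libraries, against 204, 10 and 6 in the heterozygous ones. Gm26244, also 1 base from Gm23804, had 19, 11 and 24 in the wild-type libraries, against 199, 17 and 14 in the heterozygous ones. Library 1 of each genotype held the highest normalised values of both, and the genotypes overlapped. Their log2 differences were -0.36 (SE 1.44) and 0.63 (SE 1.17).

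Gm23238 was the most uneven copy, with a coefficient of variation of 205%. It had 5, 0 and 3 counts in the wild-type libraries, against 418, 7 and 6 in the heterozygous ones. Heterozygous library 1 alone held 201 of its normalised counts, and the other 5 libraries held between 0 and 14.8. The genotypes overlapped, because heterozygous libraries 2 and 3 lay below wild-type library 1. The log2 difference was 3.74 (SE 1.89), and DESeq2 gave no p because the count of 1 library exceeded its limit on Cook's distance, a measure of how far a single library moves a fit. With this filter off the DESeq2 adjusted p was 0.751. Without heterozygous library 1 the log2 difference was 0.41. Without wild-type library 1 it was 5.85 with a DESeq2 adjusted p of 0.0501, past the threshold of 0.1, a value that still included heterozygous library 1.

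**Figure D2:**
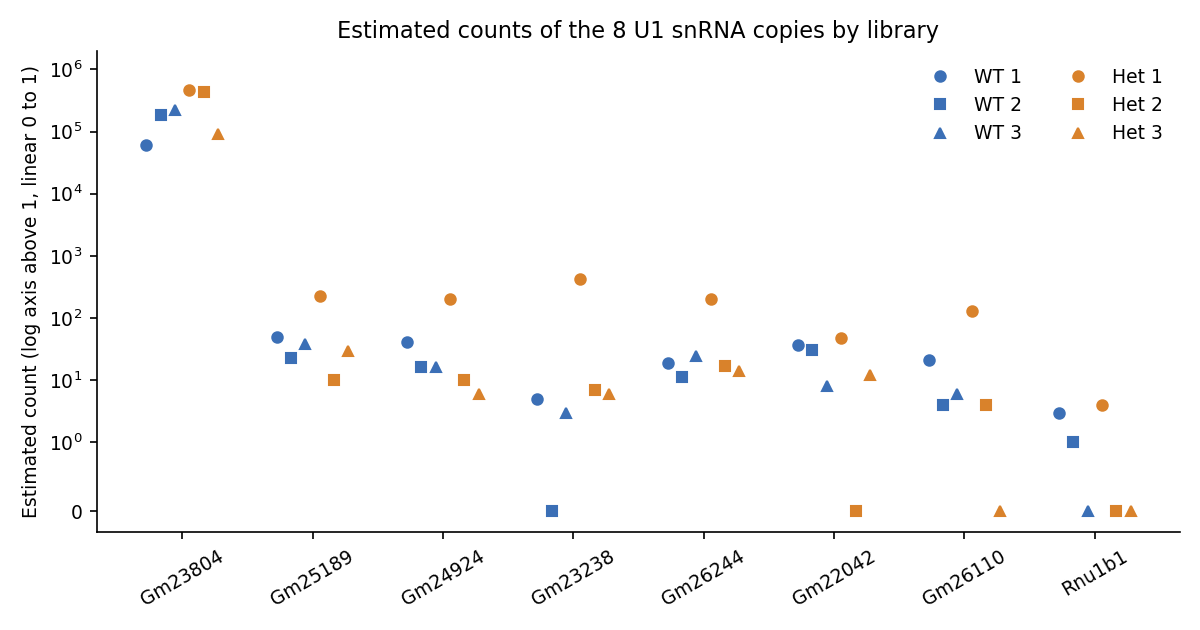
Estimated counts of the 8 U1 copies in each library, on an axis that is logarithmic above 1 and linear from 0 to 1; colours are genotypes (WT wild type, Het heterozygous) and symbols are libraries. Gm23804 lies between 60983 and 465931, while no other copy passes 418, the count of Gm23238 in heterozygous library 1.

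The U1b copies were scarce in every library. Rnu1b1, the named U1b gene, had 3, 1 and 0 counts in the wild-type libraries, against 4, 0 and 0 in the heterozygous ones. This left 3 libraries at 0, and with a floor of 3 counts this allows Rnu1b1 up to 0.00136%, 0.000697% and 0.00326% of U1 in wild-type library 3 and heterozygous libraries 2 and 3. These limits cover counting error alone, and not reads of Rnu1b1 that the model may have placed on other copies. At this depth no difference in Rnu1b1 between genotypes was detectable.

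Gm22042, 2 bases from Rnu1b1, had 36, 31 and 8 counts in the wild-type libraries, against 47, 0 and 12 in the heterozygous ones. In normalised counts wild-type library 1 stood highest at 107 and heterozygous library 2 was at 0, and the genotypes overlapped (log2 difference -1.65, SE 1.70). Gm26110, the most divergent copy, had 21, 4 and 6 counts in the wild-type libraries, against 129, 4 and 0 in the heterozygous ones. Its log2 difference was -0.11 (SE 1.94), again with no p because of Cook's distance, and library 1 of each genotype stood at 62.3 and 61.9 normalised counts against at most 5.003 in the others.

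The 3 U1b copies together had 60, 36 and 14 counts in the wild-type libraries, against 180, 4 and 12 in the heterozygous ones. This was 0.0981%, 0.0198% and 0.00635% of U1 in the wild-type libraries, against 0.0385%, 0.000929% and 0.0130% in heterozygous libraries. The highest share, in wild-type library 1, had a 95% Wilson interval of 0.0762% to 0.126%, and the lowest, in heterozygous library 2, had one of 0.000361% to 0.00239%. The genotypes overlapped, and library 1 was the highest of each.

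Between the genotypes, 0 of the 5 copies with a DESeq2 adjusted p passed 0.1, and 0 of the 6 with any p had an unadjusted p under 0.05. Of all 734 transcripts with an adjusted p, 17 passed (2.32%), with 7 higher in heterozygous libraries (0.954%) and 10 lower (1.36%). The edgeR quasi-likelihood test covered 5 of the copies and called 0, also with 0 at an unadjusted p under 0.05, and it called 0 of 577 transcripts in all (0%). The median log2 difference of the 8 copies was -0.18, and that of all 1929 transcripts was -0.13. All 8 copies overlapped between the genotypes, whereas 58 of 613 transcripts averaging 10 or more normalised counts did not overlap (9.46%).

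The copies other than Gm23804 differed more among libraries of 1 genotype than between the genotype means. Their summed counts were 175, 86 and 95 in the wild-type libraries, against 1228, 48 and 67 in the heterozygous ones. In normalised counts this was 519, 75.2 and 79.2 against 589, 21.9 and 124. Library 1 of each genotype stood apart from the other libraries of that genotype, and the genotype means (225 ± 255 and 245 ± 302, SD, n = 3 each) were close beside that spread. As a share of all U1 these copies made up 0.286%, 0.0472% and 0.0431% in the wild-type libraries, against 0.263%, 0.0111% and 0.0728% in heterozygous libraries.

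Wild-type library 1 and heterozygous library 1 held the highest 2 normalised values for 6 of these 7 copies, with Gm22042 the exception. This pair was noticed after the values were seen, and reads can be divided among like copies, so the 6 were not taken as separate observations. Among the 626 transcripts whose counts averaged 10 or more, 58 (9.27%) had the same pair on top. The pair did not share a depth, since wild-type library 1 had the lowest total (1719869) and heterozygous library 1 the second highest (8869767). The part of depth, RNA quality or preparation in this pattern was not tested.

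**Figure D3:**
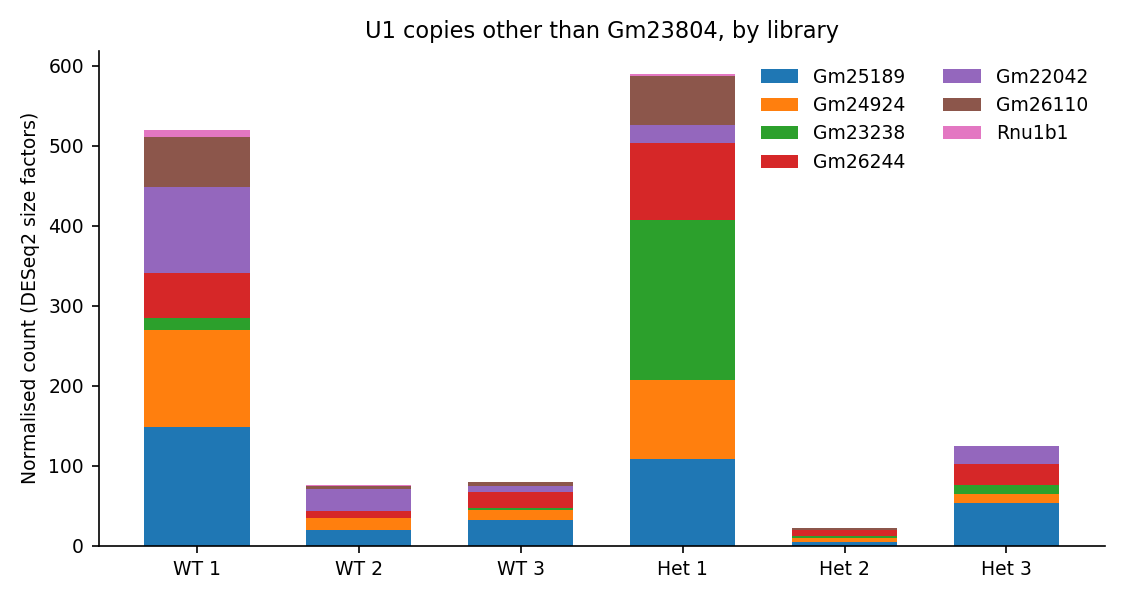
Normalised counts of the 7 copies other than Gm23804, stacked within each library, with libraries on the horizontal axis. Library 1 of each genotype reaches 519 and 589, while the other 4 libraries lie between 21.9 and 124.

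The make-up of the U1 pool was compared between the genotypes. The mean share of Gm23804 within U1 was 99.9% in both, with a difference of 0.00987 percentage points, heterozygous minus wild type (two-sided exact permutation test, p = 0.9, n = 3 each). With 3 libraries against 3 there are 20 assignments, and the smallest p such a test can give is 0.1. No values could therefore have given a p under 0.1.

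Adding the 8 copies removes the question of how reads were divided among them. Summed U1 was 61158, 182210 and 220329 counts in the wild-type libraries, against 467159, 430627 and 91976 in the heterozygous ones. Normalised, it was 181532, 159380 and 183709 in the wild-type libraries, against 224176, 196279 and 170828 in the heterozygous ones. The genotypes overlapped, since heterozygous library 3 lay below wild-type libraries 1 and 3. The means were 174873 ± 13462 and 197094 ± 26683 (SD, n = 3 each).

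In the fit of all transcripts with U1 as 1 row, the log2 difference of summed U1 was 0.18 (SE 0.33), with a DESeq2 adjusted p of 0.999. Its 95% interval of -0.47 to 0.82 covers folds from 0.722 to 1.77, so changes within that range were not resolved. With edgeR it was 0.14, with an adjusted p of 0.999. The DESeq2 log2 difference was 0.21 without wild-type library 1 and 0.27 without heterozygous library 3. With library totals as size factors the direction turned (-0.14, DESeq2 adjusted p = 0.99), so no direction can be given.

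As a share of all counts in the library, U1 took 3.56%, 4.47% and 5.94% in the wild-type libraries, against 5.27%, 4.41% and 2.99% in heterozygous libraries. The 95% Wilson intervals, which cover counting error only, were at most 0.0277 points to either side. The lowest and the highest share belonged to heterozygous library 3 and wild-type library 3. The mean log2 share differed by -0.15, heterozygous minus wild type (two-sided exact permutation test, p = 0.6, n = 3 each). These shares depend on the other abundant RNAs. A transcript left unnamed by the annotation used here took between 21.1% and 47.5% of the counts of each library. Another took 21.2% of heterozygous library 3, 7.45% and 1.53% of wild-type libraries 2 and 3, and at most 0.000767% of the rest.

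**Figure D4:**
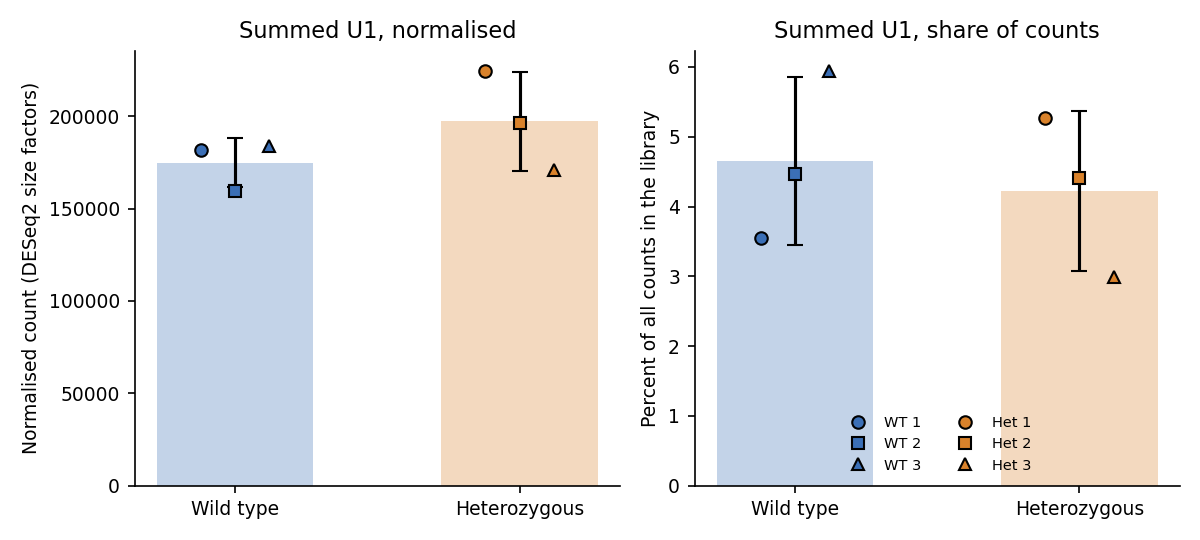
Summed U1 by genotype, as normalised counts on the left and as percent of all counts in the library on the right; bars are means, error bars 1 SD and symbols the 3 libraries. Normalised U1 runs from 159380 to 224176 and the share from 2.99% to 5.94%, with the genotypes overlapping on both scales.

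U1 was next set against the other snRNAs of the splicing machinery within each library, per base of length, which needs no size factor. The log2 differences and their permutation tests used summed counts without division by length. A transcript belonged to a family if it carried the symbol or matched such a sequence with an identity of 80% or more across 80% or more of each length. U2, which pairs with the branch site, had 7 rows, U5, which holds the exons, had 7, U6, which forms the catalytic centre, had 65, and U12 of the minor spliceosome had 4. None of these 4 families had a library at 0. No matched row carried the U6 symbol, so all 65 U6 rows entered by sequence identity alone. U11, the counterpart of U1 in the minor spliceosome, had 2 rows with 0, 1668 and 2719 counts in the wild-type libraries, against 2, 2 and 999 in the heterozygous ones. No ratio to U11 was therefore tested.

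Summed U1 per base was 11.3, 7.57 and 8.12 times U2 in the wild-type libraries, against 19.5, 11.97 and 17.5 times U2 in the heterozygous ones. Every heterozygous library lay above every wild-type library. The mean log2 ratio differed by 0.85, and the two-sided exact permutation test gave p = 0.1, the smallest it can give, or 0.2 after Benjamini-Hochberg adjustment over the 4 families. U2 itself took 0.367%, 0.688% and 0.852% of counts in the wild-type libraries, against 0.314%, 0.429% and 0.198% in heterozygous libraries, which overlapped.

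Summed U1 per base was 303, 234 and 40.5 times U6 in the wild-type libraries, against 427, 351 and 493 times U6 in the heterozygous ones. Again every heterozygous library lay above every wild-type library, and wild-type library 3, with 3551 U6 counts against 122 to 803 in the others, lay far below the rest. The mean log2 ratio differed by 1.56 (exact permutation p = 0.1, adjusted 0.2). U6 itself took 0.007675%, 0.0125% and 0.0957% of counts in the wild-type libraries, against 0.00807%, 0.00822% and 0.00397% in heterozygous libraries, which overlapped. This ratio therefore rests on a scarce partner. The ratios to U2 and U6 also share the U1 count. Of 613 single transcripts averaging 10 or more normalised counts, 58 (9.46%) did not overlap between the genotypes. Its 65 rows, none of which carried the U6 symbol, include copies that may be pseudogenes.

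The ratios to U5 and U12 overlapped between the genotypes. U1 per base was 7.70, 2.95 and 2.78 times U5 in the wild-type libraries, against 6.12, 2.84 and 4.25 times U5 in heterozygous libraries, a log2 difference of 0.08 (exact permutation p = 0.9, adjusted 0.9). It was 45.7, 54.3 and 35.6 times U12 in the wild-type libraries, against 62.9, 57.7 and 51.3 times U12 in heterozygous libraries, a log2 difference of 0.36 (exact permutation p = 0.2, adjusted 0.267). Against all 85 other spliceosomal rows together the mean log2 ratio of summed counts differed by 0.39 (exact permutation p = 0.4). No single row among these 85 passed an adjusted p of 0.1 with DESeq2, where 25 had an adjusted p and 2 had an unadjusted p under 0.05. The edgeR quasi-likelihood test covered 16 of them, called 0 and had 1 at an unadjusted p under 0.05.

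**Figure D5:**
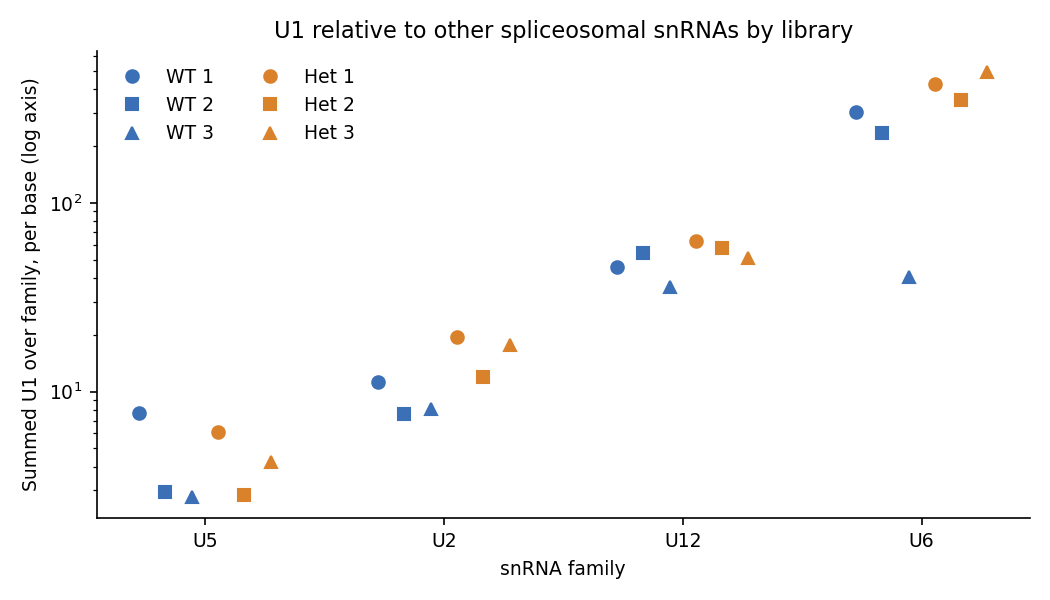
Ratio of summed U1 to 4 other snRNA families per base of length, on a log axis, with colours for genotypes and symbols for libraries. The heterozygous libraries lie above all wild-type libraries for U2 and U6, and overlap them for U5 and U12.

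A further 17 transcripts of the table matched a U1 copy by the same limits of identity and length without being among the 8. The 5′ end letters were present in 6 of these 17, the Sm site letters in 9 and the U1A loop letters in 11. Together they had 222, 230 and 276 counts in the wild-type libraries, against 953, 207 and 95 in the heterozygous ones, and at most 0.363% of the U1 count. Gm25587 led in heterozygous library 1 with 667 counts, against 74, 28 and 36 in the wild-type libraries, against 46 and 13 in heterozygous libraries 2 and 3.

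Of the 17 related transcripts 8 had a DESeq2 adjusted p, and 1 was called, lower in heterozygous libraries. This was Gm26264, with 12, 33 and 50 counts in the wild-type libraries, against 5, 9 and 7 in the heterozygous ones. Normalised, it stood at 35.6, 28.9 and 41.7 against 2.40, 4.10 and 13.0, and the genotypes did not overlap. Its log2 difference was -2.63 (SE 0.85, DESeq2 adjusted p = 0.0913). With DESeq2 the call was lost when any of the wild-type libraries or heterozygous libraries 1 and 2 was left out (adjusted p of 0.122 to 0.999), with TMM factors (0.127) and with a filter on low counts (0.194). It was kept without heterozygous library 3 (DESeq2 adjusted p = 0.000987), with library totals (0.0692) or positive counts (0.0986) as size factors, and with Cook's filtering off (0.0924). With a library left out the log2 difference ran from -3.44 to -2.18. The edgeR quasi-likelihood test covered 5 of the 17, called 0 and had 1 at an unadjusted p under 0.05. Among all 734 transcripts with an adjusted p, 1.36% were called lower. Adding all 17 to the sum left the log2 difference of U1 at 0.17 (DESeq2 adjusted p = 0.999).

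The transcripts whose level rose and fell with summed U1 were ranked by correlation. By Pearson's r of log2(normalised count + 1) over the 6 libraries, among 271 named transcripts with at least 10 counts in every library, the first 5 were Snora62 (r = 0.94), Snord12 (0.87), Gm24494 (0.84), Snord43 (0.83) and Snora23 (0.80). Over all 271 r ran from -0.97 to 0.94, with a median of 0.05. Snora62, which guides pseudouridylation of rRNA, had 134, 379 and 568 counts in the wild-type libraries, against 1340, 932 and 189 in the heterozygous ones. These values come from the same libraries and size factors, and the 5 are the top of a list of 271.

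The tissue label was compared with microRNA hairpins, of which 11 of 21 listed markers had a row. All 4 epithelial hairpins (Mir192, Mir194-1, Mir194-2 and Mir215) had a row, with summed counts of 7, 109 and 29 in the wild-type libraries, against 75, 126 and 29 in the heterozygous ones. In wild-type library 1 Mir192 had 4 counts, Mir194-1 had 3, and Mir194-2 and Mir215 had 0. The pancreatic Mir216a and Mir217 and the hepatic Mir122 reached at most 1 count in any library. Scaled to the library total, as CPM, the epithelial sum was 4.07, 26.7 and 7.81 in wild type against 8.46, 12.9 and 9.43 in heterozygous libraries, lowest in wild-type library 1 and highest in wild-type library 2. Of the hairpins known from other cells of the gut wall, Mir143 of smooth muscle had 3, 20 and 5 counts against 20, 81 and 7, and Mir142 of blood cells had 1, 0 and 0 against 6, 33 and 0. Mir145a of smooth muscle had 0, 1 and 0 counts against 3, 3 and 0, and Mir375 of enteroendocrine cells had 2, 4 and 1 against 1, 8 and 1. Heterozygous library 2, the deepest, held the highest count of Mir143, Mir142 and Mir375. The part of these cells in the U1 values was not tested. In these bulk samples fewer cells of a type and less RNA per cell cannot be told apart.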

How the data were processed

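Duodenum RNA from female mice, 3 wild type and 3 heterozygous for Polr3b, was enriched for RNAs under 200 nucleotides and demethylated before library preparation. The authors used Cutadapt for trimming and Salmon, with an index of all RNAs on GRCm39, for quantification, and deposited estimated counts (expected counts), rounded to whole numbers, for sequences under 300 bases. Reads that match several sequences are split by Salmon's model, so the values of single U1 copies are estimates.

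Columns of wild-type libraries carry the sample names. The remaining 3 columns bear the name of another Pol III subunit, were taken as heterozygous, the only other group, and were numbered in column order. Which mouse each came from was not known. The p-values measure the spread among these libraries. No pair of libraries held the same values (Spearman correlations of 0.761 to 0.938).

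Names and sequences came from GENCODE vM21 (GRCm38), by identifier without version. Of 1742 Ensembl identifiers 1356 matched, and unmatched rows could hold further U1 or U6 copies. U4, U4atac and U6atac entered no family. The sequences of Gm26244 and Gm24924 are not reported here. Sequences were compared with BLAST 2.17.0 and Biopython 1.88.

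The DESeq2 1.42.0 Wald test (median-of-ratios size factors, default filters, adjusted p under 0.1, as in the study) was fitted on all 1929 rows, or with the 8 copies as 1 row. The edgeR 4.0.16 quasi-likelihood test was the alternative, with R 4.3.3. Ratios and shares were compared by exact permutation over all 20 assignments (scipy 1.17.1). Intervals (95%) and the floor of 3 counts express counting error alone. Fits were tested on simulated data, with changes placed only in transcripts averaging 10 or more counts. This did not cover counts as low as those of Rnu1b1. The alternatives were other size factors, filters, thresholds, denominators and leaving out each library.

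All 8 copies are named, the other spliceosomal RNAs by family, and the 5 transcripts with the highest correlation to summed U1. The members and lists were chosen with earlier results of these data known.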

Additional observations from a re-analysis of the deposited data

How the results depend on the processing

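No paired analysis was possible because the heterozygous columns carry no replicate number that the labels tie to a wild-type one. The count of called copies was 0 under every size factor, filter, threshold and test tried and 0 to 1 when libraries were left out, where the 1 was Gm23238 without wild-type library 1 (5.85). For summed U1 the log2 difference was reversed with library totals as size factors (-0.14) and was 0.07 to 0.27 with a library left out. For Gm23804 alone these were -0.14 and 0.07 to 0.27. For the log2 share of counts (-0.15) the direction was reversed without tRNAs in the total (0.0318) and with normalised counts (0.17), and values ran from -0.33 to 0.08 with a library left out, above 0 without wild-type library 3 (0.04) or heterozygous library 3 (0.082). The difference in the share of Gm23804 within U1 ran from -0.0705 to 0.0835 points, below 0 without wild-type library 1 (-0.0705), heterozygous library 2 (-0.0424) or heterozygous library 3 (-0.0115). The log2 ratio of U1 to the other snRNAs ran from 0.16 to 0.73. It was 0.38 without U6 and 0.53 with family symbols only, a setting that held no U6 row. The cause of these shifts was not tested.

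Among the scarce copies, Gm26110, Gm24924 and Gm25189 changed direction under 6, 4 and 3 alternatives, Rnu1b1 and Gm26244 under 1 each, and Gm22042 and Gm23238 under 0. With a library left out, Rnu1b1 ran from -4.19 to 0.76, Gm22042 from -2.14 to -0.16, Gm23238 from 0.41 to 5.85, Gm26244 from -0.76 to 1.56, Gm25189 from -1.20 to 1.13, Gm26110 from -4.37 to 2.35 and Gm24924 from -2.68 to 1.50, where the reversed values came without wild-type library 1 (Rnu1b1 0.76, Gm25189 1.13, Gm26110 2.35, Gm24924 1.50), heterozygous library 1 (Gm26244 -0.76), heterozygous library 2 (Gm25189 0.33, Gm26110 0.46, Gm24924 0.19) or heterozygous library 3 (Gm26110 0.50, Gm24924 0.09). Size factors from positive counts reversed Gm25189 (0.0294), Gm26110 (0.36) and Gm24924 (0.0405), and TMM factors (0.14) and library totals (0.0416) reversed Gm26110.

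Chosen after seeing the data, leaving out library 1 of both genotypes gave 0.11 for summed U1, and removing every transcript above 10% of a library from the total gave -0.14 for the share. Counts of at most 418 limit what can be said of the 7 scarce copies.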
